A study of Rattus norvegicus with 2 samples.

Results

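The elastic fibre genes comprised 10 genes, namely Eln, Fbn1, Fbln1, Fbln2, Fbln5, Lox, Loxl1, Mfap4, Mfap5 and Emilin1. They were chosen by symbol, and all 10 were found among the 32623 genes of the matrix. Elastic fibres give arteries their recoil. They consist of a core of cross-linked elastin deposited on a scaffold of fibrillin microfibrils, and fibulins, emilin and lysyl oxidases take part in their assembly and cross-linking. In the artery wall, vascular smooth muscle cells (VSMCs) lay down most elastin of the media, while fibroblasts of the adventitia make other microfibril and fibulin proteins.

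Single-cell RNA was counted by 10x Genomics droplet sequencing in carotid arteries of male Sprague-Dawley rats, aged 12 weeks by the sample labels. The control group was 1 library of untouched left arteries and the case group was 1 library of balloon-injured right arteries, each pooled from the same 2 rats and taken 28 days after injury. Injury and side of the body therefore cannot be told apart. Balloon injury strips the endothelium and stretches the media, after which a neointima forms. With 1 library per group there was no replicate check and no test. The intervals given below are exact 95% intervals that cover counting error only. They leave out the spread between cells of a class, and the spread between rats is unknown.

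The control library held 3321 barcodes with 24968329 unique molecular identifiers (UMIs, each standing for 1 captured transcript) and the case library 5656 barcodes with 28232614 UMIs. Cells with at least 1000 UMIs that passed the quality filter numbered 2229 in the control and 4890 in the case library, with medians of 10919 and 5173.5 UMIs. The libraries thus differed in depth, and 21 barcode sequences occurred in both. Each cell was put into a class by its share of marker UMIs, none of which belonged to an elastic fibre gene. VSMC-like cells numbered 1197 (control) and 2640 (case), and fibroblast-like cells 703 and 1387. Endothelial-like cells numbered 56 and 258, macrophage-like cells 44 and 112, Schwann-like cells 18 and 43, and cells that carried VSMC together with fibroblast markers 78 and 87. The class is a range of a marker share, and 6.70% of control and 7.40% of case cells lay near its limit.

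The markers below helped to place the cells in classes, so their levels follow from that choice and are no separate check of it. Myh11, the smooth muscle myosin, stood at 4666 UMIs per 1000000 UMIs of the class (CPM) in control and 4858 CPM in case VSMC-like cells, against 123 and 135 CPM in fibroblast-like cells. Dcn, a proteoglycan of fibroblasts, stood at 15070 and 11920 CPM in fibroblast-like cells and at 264 and 250 CPM in VSMC-like cells. Vwf stood at 1215 and 1137 CPM in endothelial-like cells, while Pecam1 is not among the listed genes.

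Upstream sequences were available from RefSeq for 5 of the 10 genes, namely Fbn1, Fbln2, Fbln5, Loxl1 and Mfap5. They are of the GRCr8 build, whereas the counts were made on Rnor_6.0, so they serve as a description of the gene and no count was read from them. The 250 bases before the start of Fbln2, Fbln5 and Mfap5 are shown because these genes carried the differences reported below. Fbln2 (chr4:125261409-125261658, plus strand), Fbln5 (chr6:126742707-126742956, minus strand) and Mfap5 (chr4:157399669-157399918, plus strand) are printed 5′ to 3′, with GGGCGG or its reverse complement in capitals.
Fbln2: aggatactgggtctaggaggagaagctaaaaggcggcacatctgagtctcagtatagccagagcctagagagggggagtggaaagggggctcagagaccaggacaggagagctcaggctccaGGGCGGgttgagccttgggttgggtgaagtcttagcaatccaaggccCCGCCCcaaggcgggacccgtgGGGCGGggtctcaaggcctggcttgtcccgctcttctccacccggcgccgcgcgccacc
Fbln5: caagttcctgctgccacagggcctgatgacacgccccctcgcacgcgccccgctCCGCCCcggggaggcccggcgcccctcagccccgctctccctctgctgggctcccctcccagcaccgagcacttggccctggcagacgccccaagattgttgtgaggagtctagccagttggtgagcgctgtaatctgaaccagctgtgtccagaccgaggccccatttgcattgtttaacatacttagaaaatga
Mfap5: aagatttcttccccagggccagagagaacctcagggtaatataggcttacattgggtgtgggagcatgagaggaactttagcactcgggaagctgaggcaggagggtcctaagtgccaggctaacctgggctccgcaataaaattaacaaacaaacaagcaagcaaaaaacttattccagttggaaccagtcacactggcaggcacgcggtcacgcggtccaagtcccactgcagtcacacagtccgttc
The Fbln2 stretch held 3 copies of GGGCGG, a GC box, at 128 to 123, 81 to 76 and 59 to 54 bases before the start, and the Fbln5 stretch held 1 copy at 196 to 191 bases. No copy was in the Mfap5 stretch. GGGCGG was searched on both strands and was found in 30.5% of 33469 rat promoters of this length. GC content was 64.0% for Fbln2, 63.2% for Fbln5 and 51.6% for Mfap5, beside a median of 51.2% over all promoters. The CArG box (found in 1.5% of promoters), TGANTCA (6.34%) and TATAAA (12.9%) had no match in these 3 stretches.

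Some elastic fibre genes were VSMC-rich, some fibroblast-rich and some neither, in both libraries. Eln, Fbln5 and Emilin1 were lower in fibroblast-like than in VSMC-like cells, and Fbn1, Fbln1, Fbln2 and Mfap5 were higher. Lox, Loxl1 and Mfap4 were within 1.5-fold between the classes. A gene was counted as higher or lower here and below when its CPM differed by at least 1.5-fold and both sums together held at least 100 UMIs. In the control group 4 of 10 genes were higher in fibroblast-like cells and 3 lower, where 19.6% of 8653 genes were higher and 35.9% lower. In the case group the same 4 genes were higher and the same 3 lower, where 19.0% of 8552 genes were higher and 33.1% lower. In both groups the share of lower genes was thus close to that over all genes, while that of higher genes was above it. With TMM scaling, which corrects for a few abundant genes, the split of calls over all genes moved from 1695 higher and 3109 lower to 2112 and 2510 in the control group. In the case group it moved from 1626 and 2827 to 1837 and 2516. In the control group Eln was short of the limit under TMM scaling (-0.47, in place of -0.65) and with classes taken from Leiden clusters (-0.58).

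**Figure D1:**
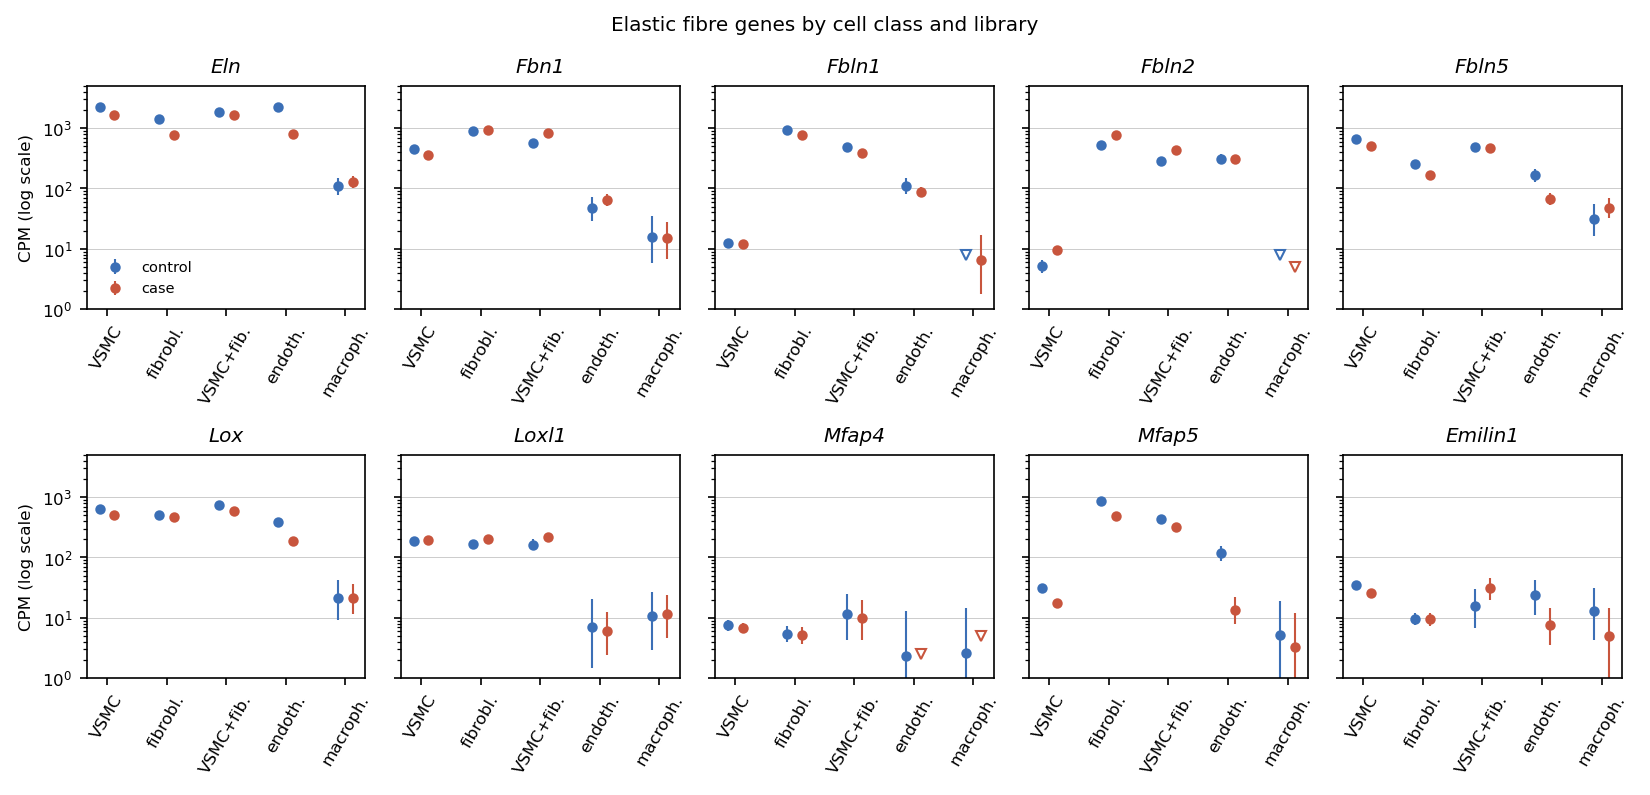
Level of each elastic fibre gene by cell class, with CPM on a log axis and 1 panel per gene. Blue points are the control and red points the case library, bars are 95% Poisson intervals, and open triangles mark the level that 3 UMIs would give where no UMI was found. Eln, Fbln5 and Emilin1 sit higher in VSMC-like than in fibroblast-like cells, and Lox is within 1.5-fold between them. Fbln1, Fbln2 and Mfap5 sit at 491 CPM or more in fibroblast-like cells and under 32 CPM in VSMC-like cells.

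Eln encodes tropoelastin, the soluble precursor of the elastic core. In the control group it stood at 2230 CPM in VSMC-like cells (interval 2205 to 2255), 2286 CPM in endothelial-like cells (2145 to 2435) and 1425 CPM in fibroblast-like cells (1399 to 1451). The first pair of classes overlapped in their intervals, and fibroblast-like cells lay below both. In the case group Eln stood at 1646 CPM in VSMC-like cells (1626 to 1667), 785 CPM in endothelial-like cells (735 to 838) and 774 CPM in fibroblast-like cells (755 to 794). There VSMC-like cells lay highest and the other two classes overlapped. Macrophage-like cells held 108 CPM in the control and 129 CPM in the case group, and whether they make Eln RNA themselves was not tested. In Leiden cluster 5, also macrophage-like but not gated for low shares of other markers, Eln stood at 297 and 204 CPM. Free RNA of the droplets was not measured. Per UMI of Myh11, Eln gave 0.478 UMIs in control VSMC-like cells and 0.594 (0.394 to 0.887) in macrophage-like cells, against 11.6 in fibroblast-like and 13.0 in endothelial-like cells. In the case group the ratios were 0.339, 0.545 (0.409 to 0.724), 5.74 and 4.55. The interval of macrophage-like cells held the VSMC-like ratio in the control group and lay above it in the case group. Fibroblast-like and endothelial-like cells had far more Eln per Myh11 UMI. Myh11 is a VSMC marker of the gate, which keeps its level low in the other classes, so these ratios were partly set by the gate. The source of the Eln UMIs in these classes was not tested. VSMC-like cells held 66.2% of all Eln UMIs of classed and unclassed control cells and 71.0% in the case group, and fibroblast-like cells held 25.6% and 17.1%.

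Microfibril genes differed in where they were found. Fbn1, which encodes fibrillin-1, the main microfibril protein, stood at 906 CPM in control and 916 CPM in case fibroblast-like cells, 2.04-fold and 2.55-fold above VSMC-like cells. Macrophage-like cells held 15.8 and 14.9 CPM of it, and macrophage-like cluster 5 held 65.2 and 46.6 CPM. Mfap5, a microfibril-associated glycoprotein, stood at 877 and 491 CPM in fibroblast-like cells and at 31.5 and 17.5 CPM in VSMC-like cells, a difference of 27.8-fold in the control and 28.1-fold in the case group. Mfap4, another microfibril-associated protein, was near the limit of detection, with 101 and 103 UMIs in VSMC-like cells (7.55 and 6.84 CPM) and 44 and 40 UMIs in fibroblast-like cells (5.42 and 5.20 CPM). Nothing firm can be said of Mfap4 at this depth.

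The fibulins were split between the classes. Fbln1, a fibulin of the matrix that binds elastin, stood at 943 CPM in control and 772 CPM in case fibroblast-like cells, 75.6-fold and 63.6-fold above VSMC-like cells. Fbln2, which binds elastin and basement membrane proteins, stood at 519 and 771 CPM, 101-fold and 81.8-fold above VSMC-like cells. Of all Fbln1 UMIs 92.1% and 88.2% were in fibroblast-like cells, and of all Fbln2 UMIs 90.8% and 84.9%. Fbln5, which brings tropoelastin to the microfibrils, lay the other way round. It stood at 659.7 and 499.7 CPM in VSMC-like cells, and fibroblast-like cells were 2.57-fold lower in the control and 3.01-fold lower in the case group. Endothelial-like cells also held Fbln2, at 309.6 CPM in the control and 309 CPM in the case group, where the 44 and 112 macrophage-like cells held no UMI of it. A count of 0 allows up to 7.91 and 4.96 CPM there. In macrophage-like cluster 5, not gated for low shares of other markers, Fbln2 stood at 32.58 and 10.65 CPM, on 16 and 8 UMIs.

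Emilin1, a glycoprotein at the interface of elastin and microfibrils, stood at 35.1 and 26.1 CPM in VSMC-like cells and at 9.49 CPM in fibroblast-like cells of either library, 3.70-fold and 2.75-fold lower. The cross-linking enzymes Lox and Loxl1, which oxidise lysines of tropoelastin, were spread over both classes. Lox stood at 636 and 499 CPM in VSMC-like cells and at 513 and 469.8 CPM in fibroblast-like cells. Loxl1 stood at 185.5 and 196 CPM in VSMC-like cells and at 165 and 199.6 CPM in fibroblast-like cells. In endothelial-like cells the pair parted, with Lox at 387 and 191 CPM and Loxl1 at 7.04 and 5.96 CPM (3 and 7 UMIs).

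In VSMC-like cells, most elastic fibre genes stood a little lower in the case than in the control group, and few passed the 1.5-fold limit. Of 10 genes 1 was higher (Fbln2) and 1 lower (Mfap5), where 5.41% of 8983 genes were higher and 15.5% lower. The median log2 ratio of case over control was -0.33 over the 10 genes and -0.14 over all genes, and 7 of the 10 lay below the latter. With TMM scaling the calls over all genes were 780 higher and 888 lower, in place of 486 and 1395, and the median of all genes moved to -0.01.

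Eln stood at 2230 CPM in control and 1646 CPM in case VSMC-like cells, a log2 ratio of -0.44 (-0.46 to -0.41). Fbln5 had a ratio of -0.40 (-0.45 to -0.36), Lox of -0.35 (-0.39 to -0.30), Emilin1 of -0.43 (-0.63 to -0.23) and Fbn1 of -0.31 (-0.36 to -0.25). These genes all shared a difference of about the same size, under 1.5-fold, and Eln lay at the 24.3 percentile of all genes. Loxl1 (0.08), Fbln1 (-0.04) and Mfap4 (-0.14) had intervals that reached 0. Mfap5 fell from 31.5 to 17.5 CPM, a log2 ratio of -0.85 (-1.08 to -0.63) at the 5.80 percentile. Fbln2 rose from 5.16 to 9.43 CPM, a ratio of 0.87 (0.45 to 1.31), on 69 and 142 UMIs. Fbln2 and Mfap5 are fibroblast-rich genes, and Dcn was also present in VSMC-like cells. Per UMI of Dcn, Fbln2 gave 0.0195 UMIs in control and 0.0378 in case VSMC-like cells, beside 0.0344 and 0.0647 in fibroblast-like cells. Mfap5 gave 0.119 and 0.0699 per UMI of Dcn in VSMC-like cells, beside 0.0582 and 0.0412 in fibroblast-like cells. Fbln2 was thus higher, and Mfap5 lower, per Dcn UMI in the case group in both classes. Dcn is a fibroblast marker of the gate, so these ratios were partly set by the gate. Dcn itself was also lower in CPM in case than in control fibroblast-like cells. The part of fibroblast RNA in the VSMC-like values was not tested. Of VSMC-like cells 3.34% in the control and 3.64% in the case group held a UMI of Fbln2, and the size of the rise depended on the processing. Its log2 ratio was 0.11 as a mean over cells and -0.10 with cells thinned to 2000 UMIs, but 1.65 with classes taken from Leiden clusters. Within cluster 1 it was 2.13 (1.04 to 3.42), on 8 and 50 UMIs, and within cluster 4 it was 1.38 (0.22 to 2.51), on 17 and 13 UMIs.

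**Figure D2:**
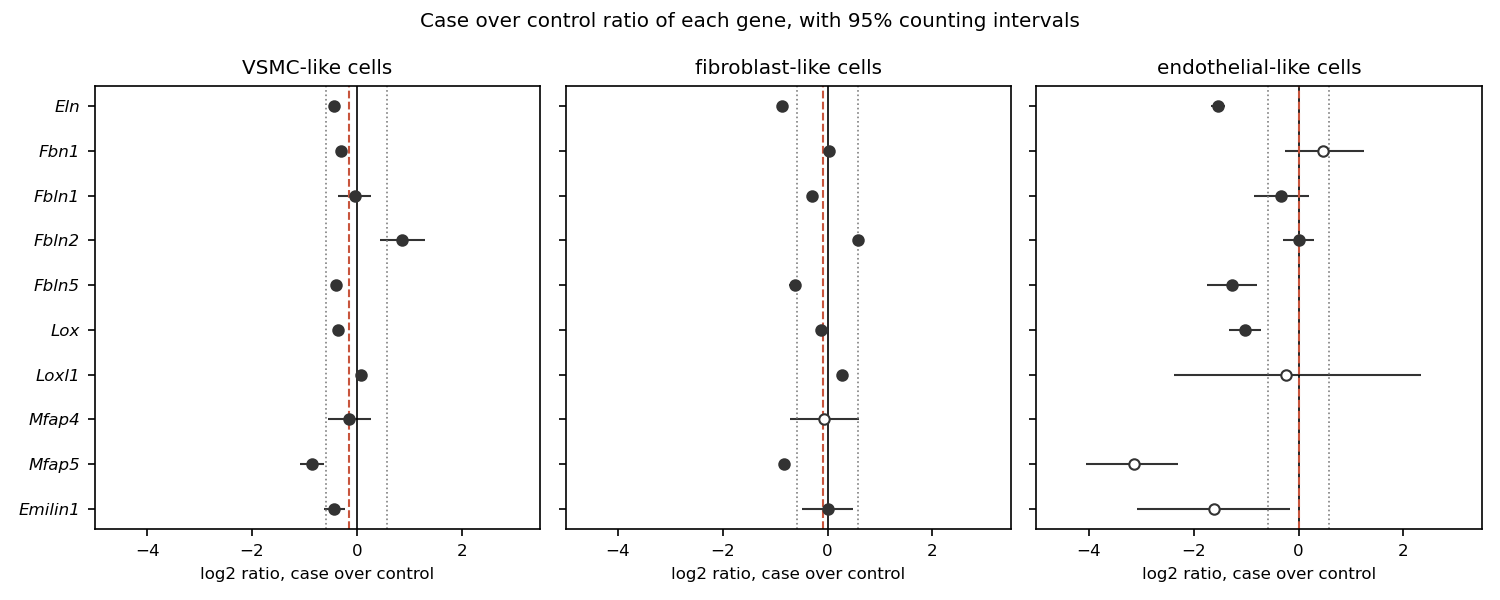
Log2 ratio of case over control CPM for each elastic fibre gene (vertical axis) in 3 cell classes, 1 panel each (VSMC-like, fibroblast-like, endothelial-like), with 95% counting intervals. Filled points had at least 100 UMIs over both libraries, open points fewer, dotted lines mark 1.5-fold, and the dashed red line is the median of all genes. Mfap4 has no point in endothelial-like cells, where the case group held 0 UMIs. Eln lies at -0.44, -0.88 and -1.54 in the 3 classes, while Fbln2 lies at 0.87, 0.57 and 0.00.

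In fibroblast-like cells Eln, Mfap5 and Fbln5 fell, and no gene rose past the limit. Of 9 genes with enough UMIs 3 were lower and 0 higher, where 14.4% of 7379 genes were lower and 6.55% higher. The median log2 ratio was -0.13 over the 9 genes and -0.09 over all genes. With TMM scaling the calls over all genes were 629 higher and 874 lower, in place of 483 and 1065, Fbln2 was counted as higher and Fbln5, at -0.56, was no longer counted as lower. Fbln5 was also short of the limit with classes taken from Leiden clusters (-0.49) and with cells thinned to 2000 UMIs (-0.57).

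Eln fell from 1425 to 774 CPM, a log2 ratio of -0.88 (-0.93 to -0.84) or 1.84-fold. Mfap5 fell from 877 to 491 CPM, a ratio of -0.84 (-0.89 to -0.78) or 1.79-fold. Fbln5 fell from 256 to 166 CPM, a ratio of -0.63 (-0.73 to -0.52) or 1.54-fold, which is just past the limit. Fbln2 stood at 519 CPM in the control and 771 CPM in the case group, a ratio of 0.57 (0.51 to 0.63) or 1.49-fold, which is just short of it. Fbn1 had a log2 ratio of 0.02 (-0.03 to 0.06), Lox of -0.13, Loxl1 of 0.27, Fbln1 of -0.29 and Emilin1 of 0.00. Over the whole class the fibulins thus stood on either side of 0, and Fbn1, the scaffold gene, stood near 0 while its associated protein Mfap5 was lower.

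In fibroblast-like cells Eln and Fbln5 fell while the mix of fibroblast clusters differed. The part of the mix in these falls was not tested. Leiden clusters were found without the elastic fibre genes. Of control fibroblast-like cells 42.8% were in cluster 9, 37.1% in cluster 8 and 17.2% in cluster 6, while of case cells 23.3%, 22.2% and 52.1% were. Within the class, cluster 6 was led by Il1rl1, Postn, Cilp and Has2, cluster 8 by Foxs1 and Il6, and cluster 9 by Fos, Txnip, Btg2 and Egr1. Eln was low in cluster 6 of either library, at 381 CPM in the control and 359 CPM in the case group. It stood at 1740 and 1687 CPM in cluster 9, and it stood at 1645 and 888 CPM in cluster 8, a log2 ratio of -0.89 (-0.97 to -0.81). The mix of the 3 clusters was then held at that of the control, a setting chosen after seeing the data. Here and below, the mix held was that of the clusters' shares of UMIs, not of cells. The ratio of Eln was then -0.44 in place of -0.89 over these clusters. That of Fbln5 was -0.29 in place of -0.65, so neither was then past 1.5-fold. Within the clusters Fbln5 stood at 162 CPM in the control and 95.5 CPM in the case group in cluster 6 (-0.76), at 282 and 192 CPM in cluster 8 (-0.55) and at 285 and 307 CPM in cluster 9 (0.11).

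Mfap5 was lower in the case group in all 3 fibroblast clusters. It went from 1242 to 491 CPM in cluster 6, from 704 to 425 CPM in cluster 8 and from 968 to 612 CPM in cluster 9, with log2 ratios of -1.34, -0.73 and -0.66 beside medians over all genes of 0.05, -0.17 and -0.11. With the mix held its ratio was -0.84, as it was with the mix as found. Fbln2 was within 1.5-fold in each of them, at 871 and 1028 CPM in cluster 6 (0.24), 329.9 and 482 CPM in cluster 8 (0.55) and 597 and 538 CPM in cluster 9 (-0.15). With the mix held its ratio was 0.21, in place of 0.58. Fbn1 had ratios of -0.28 in cluster 6, -0.15 in cluster 8 and -0.08 in cluster 9, beside the same medians over all genes. With the mix held the ratio of Fbn1 was -0.16, in place of 0.02, and that of Fbln1 was -0.01, in place of -0.31.

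**Figure D3:**
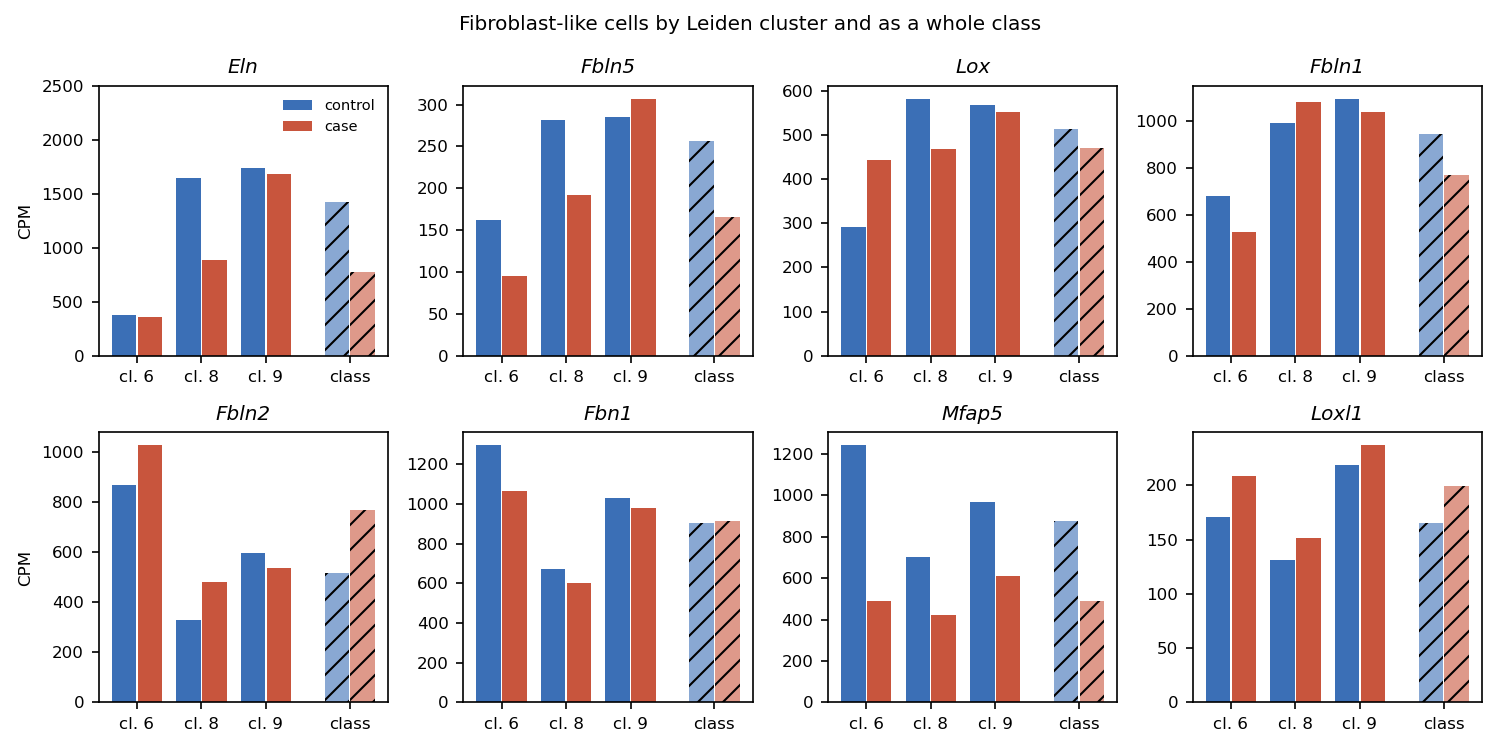
CPM of 8 elastic fibre genes in fibroblast-like cells of clusters 6, 8 and 9 and, hatched, in the whole class, for the control (blue) and the case group (red). Bars start at 0 and have no error bars. Eln is at or under 381 CPM in cluster 6 of both libraries and at 1687 CPM or more in cluster 9, while Mfap5 is lower in the case group in each of the 3 clusters.

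The genes also differed between fibroblast-like cells with and without subtype markers. Here and below, a cell was positive for a gene when it reached both a minimum count and a minimum CPM of it. The shares of positive cells were not taken at equal depth, and depth differed between the libraries. Cells positive for Pi16, a marker of adventitial fibroblasts, made up 70.3% of control and 38.9% of case fibroblast-like cells. Pi16-positive cells held more Mfap5 than the rest, with a log2 ratio of 1.16 in the control and 1.10 in the case group. They also held more Fbln1 (0.74 and 1.05), Fbn1 (0.60 and 0.66) and Fbln2 (1.13 and 0.29). Fbln2 thus stood higher in the case group although the share of Pi16-positive cells was lower there. Eln had ratios of -0.39 and -0.03. Within Pi16-positive cells Mfap5 stood at 1046 CPM in the control and 724 CPM in the case group (-0.53), and within Pi16-negative cells at 469.5 and 337 CPM (-0.48). Neither difference was past 1.5-fold, whereas that of the whole class was. Eln was lower in the case group on both sides of this gate, with log2 ratios of -0.77 in Pi16-positive and -1.13 in Pi16-negative cells. Fbln2 stood at 617 and 864 CPM in Pi16-positive cells (0.49) and rose from 282 to 709 CPM in Pi16-negative cells (1.33). Pi16 is a marker of the class itself and was lower in case fibroblast-like cells (2238 and 931 CPM), and the part of the gate in these values was not tested.

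Cells positive for Postn, which encodes periostin, made up 0.996% of control (7 cells) and 9.66% of case fibroblast-like cells (134 cells). In the case group they held less Eln than the rest (293 and 838 CPM), more Fbn1 (1470 and 844 CPM), and less Fbln1, with a log2 ratio of -1.57. Fibroblast-like cells positive for Gfpt2, an enzyme of hexosamine synthesis, made up 51.4% and 53.6%. They held less Eln than the negative cells, at 962 against 2179 CPM in the control and 480 against 1246 CPM in the case group. Eln was lower in the case group on both sides of the gate, with log2 ratios of -1.0 and -0.81. Low Eln thus went with Gfpt2 in fibroblast-like cells of both groups and with Postn in those of the case group. In the control group the 7 Postn-positive cells held 91.4 CPM of Eln, against 1436 CPM in the rest.

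Among VSMC-like cells the clusters also differed in their shares, with 46.9% of control cells in cluster 4 and 27.0% in cluster 1, and 39.9% of case cells in cluster 2 and 39.4% in cluster 1. Cluster 3 held 14.9% and 3.94% of VSMC-like cells, was led by haemoglobin genes, Pycard and Nusap1, and was left unnamed for its low depth. Eln had a ratio below 0 in each of these clusters, at -0.33 in cluster 1, -0.63 in cluster 2, -0.25 in cluster 3 and -0.32 in cluster 4. It was past 1.5-fold only in cluster 2, with 2344 CPM in the control and 1513 CPM in the case group. Mfap5 had ratios of -0.65 in cluster 1, -1.88 in cluster 2 and -0.42 in cluster 4. The mix was again held at that of the control by share of UMIs. The ratio of Eln in VSMC-like cells was then -0.33 and that of Mfap5 -0.62.

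VSMC-like cells positive for Spp1, which encodes osteopontin, a marker of synthetic VSMCs, made up 18.4% of control and 17.7% of case cells. They held more Eln than the negative cells, at 2862 against 2077 CPM in the control and 2051 against 1559 CPM in the case group. The log2 ratios of 0.46 and 0.40 are under 1.5-fold. Lox (0.34 and 0.31) and Loxl1 (0.35 in both) stood on the same side. The case over control ratio of Eln was -0.48 in Spp1-positive and -0.41 in Spp1-negative cells. VSMC-like cells were also split into 3 equal bins by their share of VSMC markers. The lowest bin held 2736 CPM of Eln in the control and 1886 CPM in the case group, and the highest bin 1977 and 1417 CPM. These bins also differed in depth, with medians of 4883 and 4554.5 UMIs per cell in the lowest and 12811 and 6017.5 in the highest bin. In fibroblast-like cells, split by their own markers, Eln ran the same way, from 2033 CPM in the lowest to 919 CPM in the highest bin of control cells and from 1105 to 480 CPM in case cells. Fbln1, Fbln2 and Mfap5 ran the other way there, with Mfap5 at 589 and 1304 CPM and Fbln2 at 284 and 832 CPM in the lowest and the highest bin of control cells.

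In endothelial-like cells Eln, Fbln5 and Lox were lower in the case group. Of 5 genes with enough UMIs 3 were lower and 0 higher, where 21.6% of 2145 genes were lower and 21.1% higher and the median ratio of all genes was 0.00. Eln fell from 2286 to 785 CPM, a log2 ratio of -1.54 (-1.67 to -1.41), Fbln5 from 164 to 68.1 CPM (-1.27) and Lox from 387 to 191 CPM (-1.02). Fbln2 stood at 309.6 and 309 CPM, and Fbln1 had a ratio of -0.33 (-0.84 to 0.20). Here too the mix differed. Cluster 10, led by Vwf, F5 and Gja5, held 85.7% of control and 48.8% of case endothelial-like cells, and cluster 7, led by Fabp4, Plvap and Emcn, held 14.3% and 50.8%. Within cluster 10 Eln stood at 2578 CPM in the control and 1285 CPM in the case group, a ratio of -1.0 (-1.14 to -0.87), and Lox had a ratio of -0.43. In cells without a gated level of Plvap or Emcn, Eln stood at 2480 and 924 CPM (-1.42). The control class held only 56 cells.

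Cells that carried VSMC together with fibroblast markers held VSMC-rich and fibroblast-rich genes. Eln stood at 1878 CPM in the control and 1631 CPM in the case group, Fbn1 at 577 and 836 CPM and Mfap5 at 430 and 321 CPM. Fbln2 stood at 286 and 430 CPM, a log2 ratio of 0.59. Doublets among these cells were not removed, and their median depth was 2245.5 UMIs in the control and 9577 in the case group.

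The elastic fibre genes also differed in how evenly cells of a class held them. To set depth aside, each cell was thinned to 2000 UMIs, which left out 127 control and 102 case VSMC-like cells and 25 and 53 fibroblast-like cells. Eln was then found in 94.2% of control and 84.7% of case VSMC-like cells, 57.5% and 37.3% of fibroblast-like cells, and 11.6% and 13.1% of macrophage-like cells. Before thinning the shares were 98.5% and 95.5%, 86.8% and 55.2%, and 52.3% and 27.7%. A thinned control VSMC-like cell held a median of 4 Eln UMIs and a case cell 2, with maxima of 33 and 57. A thinned fibroblast-like cell held a median of 1 and 0, with maxima of 50 and 43. The 10% of fibroblast-like cells with most Eln held 55.2% of its thinned UMIs in the control and 70.0% in the case group, against 27.6% and 32.4% in VSMC-like cells. Eln was thus held less evenly by fibroblast-like than by VSMC-like cells. In fibroblast-like cells the highest 10% held 52.3% and 53.3% of thinned Loxl1 UMIs and 49.1% and 60.1% of Fbln5. These genes had few UMIs per cell, which by itself raises this share. The variance of thinned UMIs over their mean was 1.32 and 1.37 for Loxl1 and 1.27 and 1.46 for Fbln5. For Eln it was 9.98 and 10.0.

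Fbn1 was found in 69.0% and 67.0% of thinned fibroblast-like cells and in 55.8% and 47.8% of VSMC-like cells, against 0 of 43 and 4.67% of macrophage-like cells. Fbln1 was found in 77.3% and 66.5%, Mfap5 in 69.8% and 48.4%, and Fbln2 in 50.7% and 58.7% of fibroblast-like cells. In VSMC-like cells these 3 genes were found in at most 5.89%. For Fbln2 the VSMC-like shares were 1.59% and 1.46%, on 19 and 42 thinned UMIs, together under the limit of 100. At this equal depth its CPM was not higher in the case group either, with a log2 ratio of -0.1. For the other fibroblast-rich genes the highest 10% of fibroblast-like cells held 36.2% and 45.9% of thinned Mfap5 UMIs, 37.6% and 42.3% of Fbn1 and 31.8% and 36.4% of Fbln1. The share depends on the UMIs per cell, so it does not rank genes by evenness. The variance over the mean was 2.32 and 2.53 for Mfap5, 2.44 and 3.45 for Fbn1 and 1.88 and 2.03 for Fbln1.

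**Figure D4:**
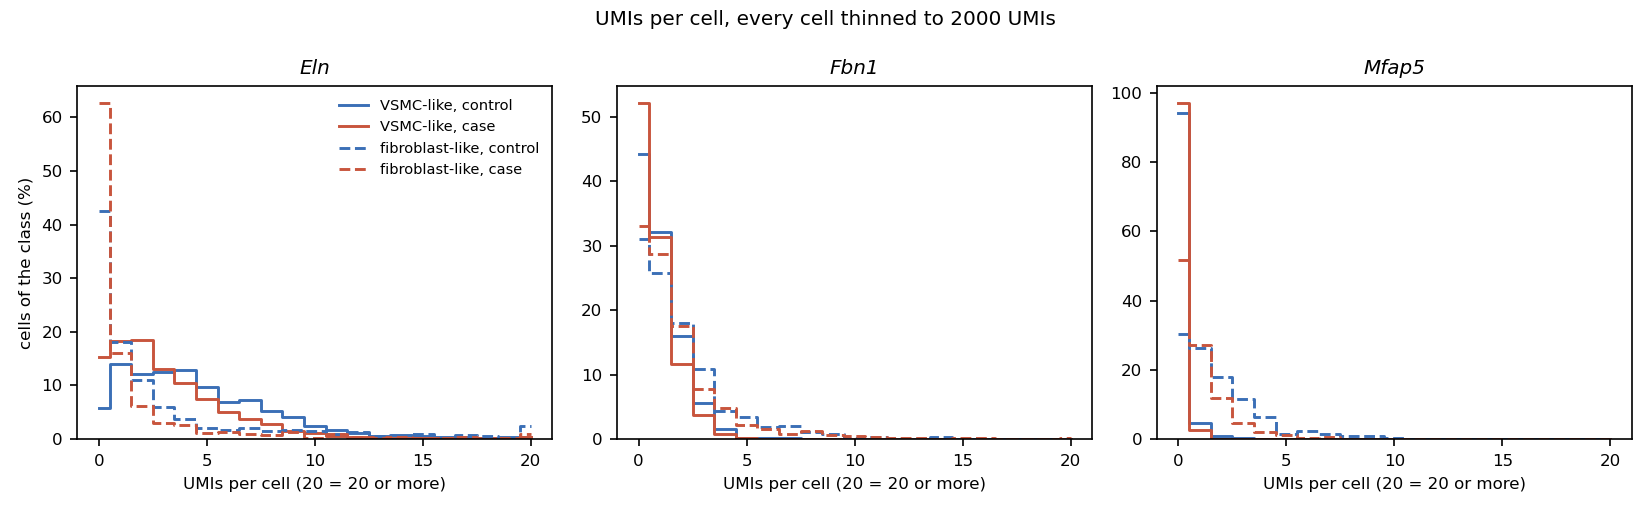
Percent of cells (vertical axis) by UMIs of Eln, Fbn1 and Mfap5 per cell (horizontal axis, 20 standing for 20 or more) after thinning each cell to 2000 UMIs. Solid lines are VSMC-like and dashed lines fibroblast-like cells, blue the control and red the case group. For Eln the fibroblast-like cells pile up at 0 UMIs with a long tail, and 94.2% of control VSMC-like cells hold at least 1 UMI.

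Levels of the genes were set beside each other over 22 sums, each of the cells of 1 Leiden cluster in 1 library with at least 50 cells. These sums share 2 libraries, so the correlations of log2(CPM + 1) are a description. Fbln1 went with Mfap5 (Pearson r = 0.91) and Fbln2 (0.90), Eln with Fbln5 (0.88) and Lox (0.87), and Fbn1 with Loxl1 (0.88). The lowest value was that of Fbln2 with Emilin1 (-0.70). Among 3106 genes, the one most like Eln was Bgn, which encodes biglycan (0.936), and the one most like Fbln5 was Twsg1 (0.963), followed by Bgn (0.961). Fbn1 was most like Serpinh1, the collagen chaperone (0.941), and Lox most like Ltbp3, a microfibril-associated binder of latent TGF-beta (0.961). Fbln2 was most like Efemp1, another fibulin (0.971), Fbln1 like C7 (0.961), Mfap5 like Col14a1 (0.934) and Loxl1 like Dact1 (0.916). The closest genes to Emilin1 (Itpr1, 0.891) and Mfap4 (Ppp2r5e, 0.752) were less near.

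**Figure D5:**
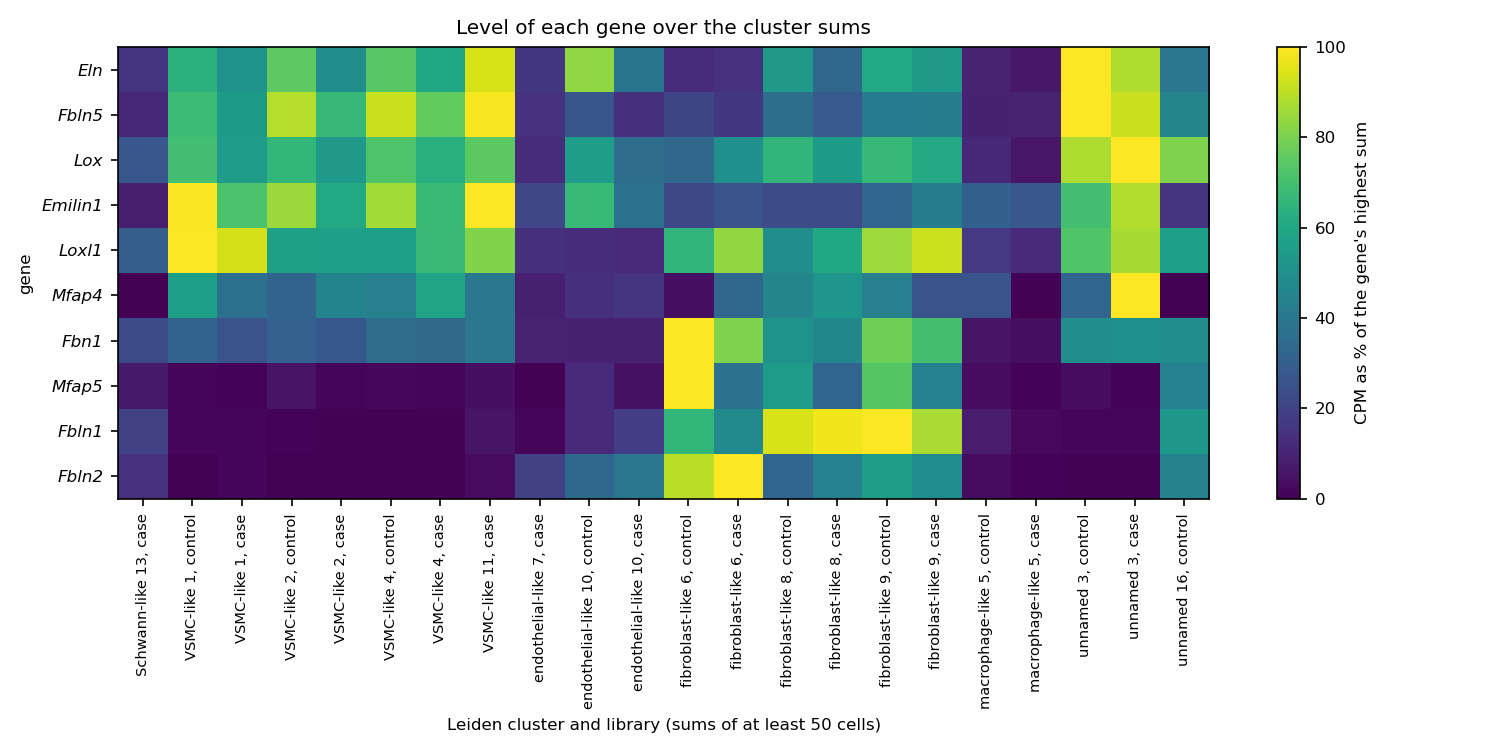
CPM of each elastic fibre gene as percent of its highest value over the 22 sums (columns: Leiden cluster and library, rows: gene). Eln, Fbln5 and Emilin1 are high in VSMC-like clusters and in unnamed cluster 3, and Fbn1, Mfap5, Fbln1 and Fbln2 are high in fibroblast-like clusters. Eln is also high in endothelial-like cluster 10 of the control (2580 CPM). Lox is at similar levels in VSMC-like clusters and in fibroblast-like clusters 8 and 9. Fbn1 in cluster 3 (627 and 640 CPM in control and case) is near that in cluster 8 (652 and 596 CPM). Eln in fibroblast-like clusters is lowest in cluster 6.

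Of 26 other elastic fibre genes, which encode further fibrillins, latent TGF-beta binding proteins, fibulins, emilins and cross-linking enzymes, 24 were among the listed genes and 14 had enough UMIs in each comparison. Their case over control ratios were small. In VSMC-like cells 0 were higher and 1 lower, Ltbp3, which went from 252 to 166 CPM (-0.60), and the median log2 ratio was -0.19, where 5.41% of all genes were higher and 15.5% lower with a median of -0.14. In fibroblast-like cells 0 were higher and 1 lower, Emilin2 (7.64 and 5.07 CPM, -0.59), whose interval reached 0.01, and the median was -0.01, where 6.55% of all genes were higher and 14.4% lower with a median of -0.09. Between the classes, Mfap2 (5.89-fold), Efemp1 (131-fold), Loxl2 (17.1-fold) and Bmp1 (7.27-fold) were higher in fibroblast-like cells of the control group, and Ltbp2 (3.31-fold) and Efemp2 (2.12-fold) were lower, so 4 of 14 were higher and 2 lower, where 19.6% of all genes were higher and 35.9% lower. In the case group 6 were higher and 3 lower, with Ltbp4 (1.76-fold) and Fkbp10 (1.51-fold) added to the higher and Ltbp1 (1.57-fold) to the lower genes, where 19.0% of all genes were higher and 33.1% lower. Of 7 elastin-degrading enzymes, 3 had enough UMIs in VSMC-like cells, where Ctsk, cathepsin K, was lower in the case group (52.8 and 34.9 CPM, -0.60). In fibroblast-like cells 4 had enough UMIs and none passed 1.5-fold. Mmp2 (4.57-fold), Ctsk (7.73-fold), Ctsl (9.29-fold) and Ctss (55.5-fold) were higher in fibroblast-like than in VSMC-like cells of the control group.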

How the data were processed

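For each barcode and gene the authors deposited raw UMI counts of 10x libraries, made with Cell Ranger 3.1.0 on Rnor_6.0 per the labels and submitters' notes, which also name Seurat. Whether counts were down-sampled before deposit is not given in the sources used here. Barcodes were assigned to groups by suffix, since the numbers of barcodes per suffix equal those stated for each group. Cells with over 20% mitochondrial UMIs, with log10 UMIs or genes beyond 2 SD, beyond 3 robust SD of their relation, or under 1000 UMIs were left out. A cell joined a class when its marker share reached 0.1 of the level of the 20 highest cells, was 3 times that of any other class, and at least 2 markers were found. Counts were summed per class and library and given as CPM. Ratios have conditional binomial intervals, levels Poisson intervals and shares Clopper-Pearson intervals. Only the ratio intervals were tried on simulated data, with Poisson counts that hold no added spread between cells. Clusters used 2000 variable genes, 30 components, 20 neighbours and Leiden resolution 0.8. Scrublet marked 0.85% of control and 0.02% of case cells, so it did not work in the case group, and doublets were left in. Python 3.11.15, scanpy 1.11.5, R 4.3.3 and edgeR 4.0.16 (for TMM factors) were used. The genes named were all 10 members, listed pathway genes past 1.5-fold and, for each member, its most like genes. Members, lists and gates were chosen with earlier results of these data known.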

Additional observations from a re-analysis of the deposited data

Results flagged for a closer look

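In fibroblast-like cells, the case over control log2 ratio of some genes had opposite signs in different clusters. Fbln1 had 0.12 in cluster 8 and -0.37 in cluster 6, Fbln2 had 0.55 in cluster 8 and -0.15 in cluster 9, and Lox had 0.61 in cluster 6 and -0.31 in cluster 8. With 1 library per group these differences between clusters were not tested.

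The barcodes left out of the classes by the quality filter and the limit of 1000 UMIs, 1092 in the control and 766 in the case group, also held fibroblast-rich genes. Fbln1 stood at 300.6 CPM in the case and 129.9 CPM in the control group there, and Fbln2 at 123.5 and 33.06 CPM, a signal outside the cells compared above.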

How the results depend on the processing

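The comparisons were repeated under 10 alternatives of the cell filter, doublets, classes, scaling, depth and weight of cells, and 2 chosen after seeing the data (the highest doublet scores left out, and the cluster mix held at that of the control). Of the counts of genes, 86 stayed within 1.5 times the reported count and 6 did not. Of the log2 ratios, 359 stayed within the counting interval of the reported value, 100 moved out of it and 1 was reversed, and of the levels 325 stayed and 75 moved. In fibroblast-like cells 1 gene (Fbln2) was higher with the gate level doubled and with TMM factors, and with the mix held 1 gene (Mfap5) was lower in place of 3. In VSMC-like cells 0 genes were higher with cells thinned to 2000 UMIs and with the mean over cells, and 2 (Mfap5 and Emilin1) were lower with thinning. The ratio of Fbln2 in VSMC-like cells was reversed by thinning, at -0.10. The cause of these changes was not tested. Eln in control fibroblast-like against VSMC-like cells was short of 1.5-fold with Leiden classes (-0.58) and TMM factors (-0.47). Emilin1 was not counted as lower there with thinning, where its ratio was -1.63. Thinning left 16 and 78 UMIs of Emilin1 in these classes, together under the limit of 100. Fbln5 in fibroblast-like cells was short of 1.5-fold with Leiden classes, thinning and TMM factors. The ratio of Fbln2 in VSMC-like cells reached 1.65 with Leiden classes and with the mix held. Over all alternatives the log2 ratio of Eln ran from -0.55 to -0.30 in VSMC-like and from -0.96 to -0.44 in fibroblast-like cells, and that of Mfap5 from -1.15 to -0.62 and from -0.94 to -0.76. No paired analysis was possible because each group has 1 library, and for the same reason no replicate could be left out. Over all genes, TMM factors gave 780 higher and 888 lower genes in VSMC-like cells, in place of 486 and 1395. Thinning left fewer genes with 100 UMIs and so fewer calls, with 928 lower genes in VSMC-like (1395 as reported) and 545 in fibroblast-like cells (1065). Between the classes it gave 778 higher and 1227 lower genes in the control (1695 and 3109) and 1757 lower in the case group (2827). Depth limits Mfap4, the low fibulins of VSMC-like cells and all values of the 56 control endothelial-like cells.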

Other observations

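VSMC-like cluster 12, with 20 case cells, was too small to be given a level. Among named VSMC-like clusters with at least 50 case cells, the highest case Eln was in cluster 11. This cluster held 21 control and 121 case cells and was led by Pcsk1, Vcam1, Postn and Spp1. Of the 121 case cells 74 were gated as VSMC-like. The cluster held 2905 CPM of Eln, 780 CPM of Fbln5 and 39.3 CPM of Emilin1 in the case group. Case clusters 1, 2 and 4 held 1518 to 1848 CPM of Eln. Fibroblast-rich genes also stood higher in cluster 11, with 51.9 CPM of Fbln1, 28.3 CPM of Fbln2 and 51.9 CPM of Mfap5. Case clusters 1, 2 and 4 held 5.07 to 12.7, 2.8 to 11.4 and 13.8 to 20.7 CPM of these genes. The control group had under 50 cells of cluster 11, so no level is given for it. In cluster 16, which held 66 control cells and 1 case cell and was left unnamed, Eln stood at 1231 CPM and Lox at 709.5 CPM.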
